A study of Homo sapiens with 17 samples.

Results

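Isolated FOXA1 sites without CREB1 are places in the genome of LNCaP-abl cells where a FOXA1 peak was called, no CREB1 peak touched it, and no second such FOXA1 peak lay close by. They were chosen from the authors' peak lists in 2 steps. A FOXA1 peak was kept where it shared no base with any CREB1 peak of LNCaP-abl or of LNCaP, which left 64527 of 79242 FOXA1 peaks. Of these CREB1-free peaks, those with no other CREB1-free FOXA1 midpoint within 5000 bp were kept, which left 50133 isolated sites. The isolated sites were 63.3% of all FOXA1 peaks (95% exact Clopper-Pearson interval 62.9% to 63.6%) and 77.7% of the CREB1-free ones. The other CREB1-free peaks, 14394 in number and 18.2% of the list, are called clustered here. The remaining 14715 FOXA1 peaks, 18.6%, shared at least 1 bp with CREB1. Intervals on shares of peaks cover the counting of peaks only, since each ChIP-seq sample gave 1 peak list and no replicate.

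The cells are 2 established lines of human prostate cancer: LNCaP, which needs androgen to grow, and its androgen-independent subline LNCaP-abl, shortened to abl here. LNCaP at passages 32 to 34 was kept in serum, and abl at passages 62 to 64 in serum that had been stripped of most steroid hormone with charcoal. ChIP-seq mapped CREB1 in LNCaP and in abl, but FOXA1 in abl alone, and FOXA1 binding in LNCaP was not analysed here. For RNA sequencing both lines were transfected with siControl, siCREB1 or siFOXA1, a control siRNA and siRNAs against the named factor, each at 40 nM for 3 days in charcoal-stripped serum. This gave 6 groups of 2 libraries. The series lists 17 samples, of which 8 ChIP-seq samples of siRNA-treated abl cells, 4 of them siControl, were not analysed here.

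FOXA1 is a forkhead transcription factor that can bind its motif in closed chromatin and open it, and it is therefore called a pioneer factor. In prostate cells it opens enhancers for other factors, and it works there with partners such as HOXB13 and GATA2. CREB1 binds the cyclic-AMP response element, often close to transcription starts, and recruits the co-activators CREBBP and EP300. FOXA1 is best known for binding enhancers far from transcription starts.

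Isolated sites scored above clustered sites and below FOXA1 peaks that met CREB1. The authors' score of a peak, which was used only to rank peaks within the list, ran from 80.01 to 3100 over the isolated sites, with a median of 196.48. The middle 50% of them lay between 118.66 and 379.73. Clustered sites had a median score of 173.95, and FOXA1 peaks shared with CREB1 had a median of 353.57. The curve of the isolated sites thus lay between the other classes and nearer to the clustered one. A score of at least 500 was reached by 8453 isolated sites (16.9%), by 11.4% of clustered sites and by 39.1% of CREB1-sharing peaks. At the weak end, 7500 isolated sites (15.0%) scored under 100, against 16.9% of clustered sites and 8.65% of CREB1-sharing peaks. The lowest score in each of the 3 lists was about 80, so CREB1-free means here that no CREB1 peak of such a score was called. These scores come from the same ChIP-seq as the rule and are given as a description, with no test.

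**Figure D1:**
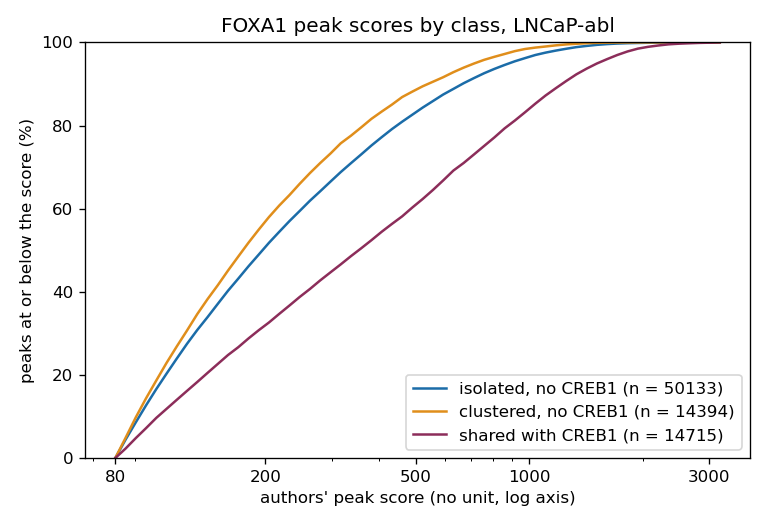
Cumulative share of FOXA1 peaks (%, vertical) at or below each authors' peak score (horizontal, log axis) for isolated CREB1-free, clustered CREB1-free and CREB1-sharing peaks of abl. The isolated curve reaches 50% at a score of 196.48, between the clustered curve at 173.95 and the CREB1-sharing curve at 353.57.

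Among CREB1-sharing FOXA1 peaks, the line in which CREB1 was called went with the score. Peaks that met CREB1 of abl only (5553) had a median FOXA1 score of 424.03, those that met CREB1 of LNCaP only (1469) 350.72, and those that met CREB1 of both lines (7693) 300.28. All of these medians exceeded that of the isolated sites.

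Only 1 isolated site was among the 8 FOXA1 peaks that scored at least 3100, and the highest score of any class was 3114. This strongest isolated site was chr1:197834526-197835580 (hg19), 1055 bp wide, with a score of 3100 and the nearest CREB1 peak 35.8 kb away. It was followed, among the sites printed here, by chr7:84182851-84183872 with 2537.34, chr12:81788462-81789585 with 2532.26 and chr2:178794250-178795429 with 2505.31. The next were chr5:75430172-75431227 with 2492.82 and chr1:185485250-185486318 with 2483.91. The site chr13:82448050-82448879, 830 bp wide, scored 2431.64 although its nearest CREB1 peak lay 334 kb away in the LNCaP list and 730 kb away in the abl list. The last of the strongest 10 printed here, chr11:107021755-107023165, scored 2391.68 and lay 273 kb from CREB1. Of the 8 sites printed, 6 lay within 100 kb of a CREB1 peak, and the smallest gap was 15.3 kb. Genes and sequence at these positions were not analysed here.

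The isolated sites were narrower than the other classes. They were 161 to 3028 bp wide with a median of 598 bp, clustered sites had a median of 646 bp and CREB1-sharing peaks one of 702 bp. The widest isolated site was chr5:164664602-164667629 with 3028 bp and a score of 956.33. Width rose with the score inside the isolated class, with a Spearman rho of 0.62 across 50133 sites of 1 library, given as a description. In 4 score classes of equal size, from the weakest to the strongest isolated sites, the median width was 482, 566, 645 and 736 bp.

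Among weak CREB1-free peaks, the share that were isolated fell with width. For this the CREB1-free peaks were divided into 4 classes of equal size by width and, separately, by score. Among the narrowest peaks, 161 to 504 bp wide, between 83.6% and 85.4% were isolated in each of the 4 score classes. Among the widest peaks, 721 to 3605 bp, 290 of the 740 in the weakest score class were isolated, or 39.2% (35.7% to 42.8%). In the strongest score class of the same width, 7078 of 8841 were isolated, or 80.1% (79.2% to 80.9%). The widest peaks of the weakest score class were the one combination of the 16 in which most peaks were clustered. By score alone the share moved less, from 75.2% of the 6453 CREB1-free peaks that scored up to 92.16 to 84.6% of the 6453 that scored 637.96 or more.

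**Figure D2:**
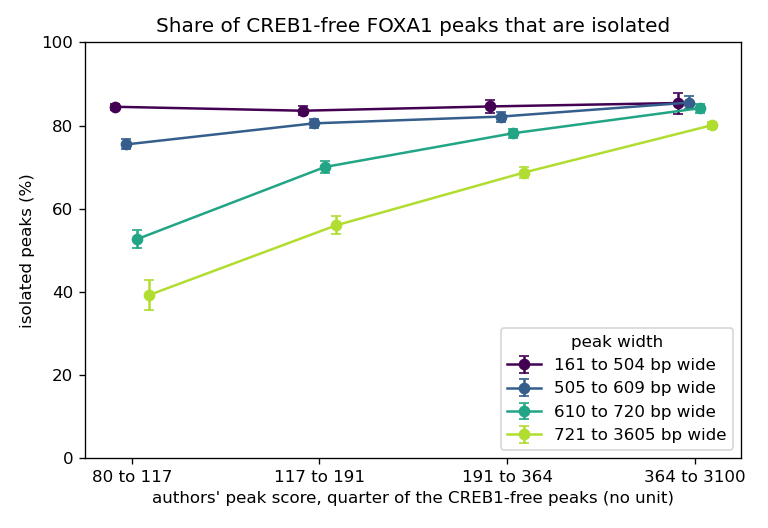
Share of CREB1-free FOXA1 peaks that are isolated (%, vertical) in 4 equal-sized classes of the authors' peak score (horizontal), with 1 line for each of 4 classes of peak width in bp. Bars are 95% exact Clopper-Pearson intervals over peaks. The line of the narrowest peaks stays between 83.6% and 85.4%, whereas that of the widest peaks runs from 39.2% to 80.1%.

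Isolation was judged against other CREB1-free FOXA1 peaks, so a CREB1-sharing FOXA1 peak could still lie close. This was so at 2509 isolated sites (5.00%), which had a CREB1-sharing FOXA1 peak with its midpoint within 5000 bp. The other 47624 sites had no FOXA1 peak of any kind within that distance, so the name isolated held for most of the class. Of the 2509 pairs, the isolated site had the lower score in 1627 (64.8%). Its median score was 181.48, and that of the CREB1-sharing neighbour was 314.18. The whole classes differed in the same direction, with medians of 196.48 and 353.57, so the lower score was not particular to these pairs.

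The rule removed sites that touched CREB1, and few of the isolated sites left had CREB1 just beside them. The gap from the edge of an isolated site to the nearest CREB1 peak of either line had a median of 32.0 kb, and the middle 50% of gaps lay between 11.3 and 80.4 kb. The median was 36.5 kb to the abl list, which holds 27629 CREB1 peaks, and 50.7 kb to the LNCaP list, which holds 21991. Within 1000 bp of CREB1 stood 1951 isolated sites (3.89%), and within 5000 bp stood 6525 (13.0%, interval 12.7% to 13.3%). At the other end, 10073 isolated sites (20.1%) lay 100 kb or more from any CREB1 peak. Clustered sites had a median gap of 29.6 kb, and 1586 of the 14394 lay within 5000 bp of CREB1. The curves of both classes cross, with isolated sites slightly ahead at short gaps and slightly behind at long ones.

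**Figure D3:**
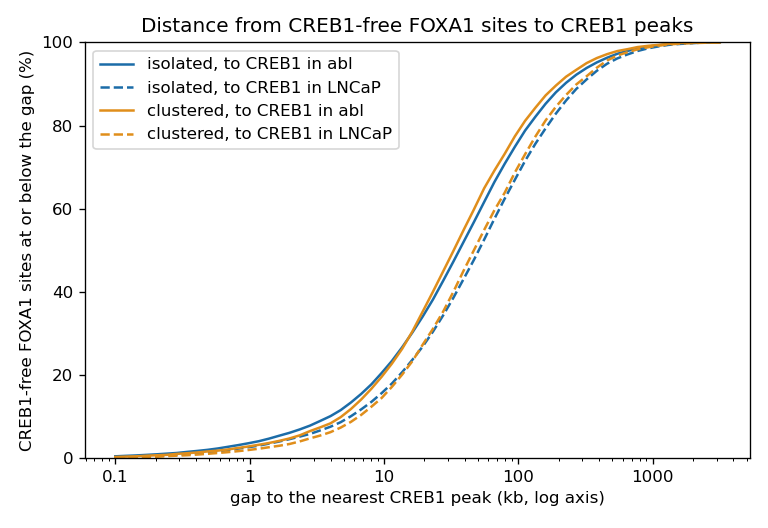
Cumulative share of CREB1-free FOXA1 sites (%, vertical) at or below each edge-to-edge gap to the nearest CREB1 peak (kb, log axis), for isolated and clustered sites and for the CREB1 lists of abl (solid) and LNCaP (dashed). Isolated sites reach 50% at 36.5 kb for the abl list and at 50.7 kb for the LNCaP list.

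The nearby CREB1 peaks were mostly present in abl. Of the 6525 isolated sites within 5000 bp of CREB1, 3996 had a CREB1 peak of each line in that range, 2027 had one of abl only and 502 had one of LNCaP only. Clustered sites showed the same order, with 1012, 483 and 91 of their 1586. The LNCaP list is shorter, and no test was made of this difference.

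FOXA1 strength did not follow the distance to CREB1 beyond the first 1000 bp. The 1101 isolated sites under 500 bp from CREB1 had a median FOXA1 score of 173.24, and the 850 sites from 500 to 1000 bp had one of 181.11. In all 9 ranges beyond, up to gaps of over 500 kb, the median stayed between 195.52 and 201.89. The 1007 isolated sites 500 kb or more from CREB1 had the highest of these medians, 201.89, and 17.6% of them scored at least 500. Width was lower farther from CREB1, from a median of 644.5 bp at gaps of 1000 to 2000 bp to 565 bp beyond 500 kb.

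Seen from CREB1, isolated FOXA1 sites flanked a minority of the CREB1 peaks that lacked FOXA1. Among CREB1 peaks called in abl only, 58.8% of 9196 overlapped FOXA1, and of the 3789 that did not, 900 (23.8%) had an isolated site within 5000 bp. For abl peaks shared with LNCaP, 42.2% of 18433 overlapped FOXA1, and of the other 10659, 24.5% had an isolated site in range. For peaks called in LNCaP only, 43.1% of 3391 overlapped FOXA1 of abl, and 15.7% of the other 1931 had an isolated site in range. The share beside an isolated site was thus lower for CREB1 peaks that abl lacked than for those called in abl, with intervals of 14.1% to 17.4% against 23.7% to 25.3% for shared peaks.

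The rule sets a minimum spacing of 5000 bp, and most isolated sites had their next neighbour well beyond it. The distance from the midpoint of an isolated site to the next CREB1-free FOXA1 midpoint had a median of 15.6 kb, and 80% of these distances lay between 6.44 and 51.9 kb. Sites with a neighbour at 5 to 10 kb numbered 14757 (29.4%) and had a median score of 204.79. The median fell in each wider range to 174.95 among the 1495 sites whose neighbour lay 100 kb to 1 Mb away. Adjacent sites were not alike in strength. Across the 7007 neighbouring pairs 5 to 10 kb apart Spearman's rho of their scores was 0.01, and over the other ranges up to 1 Mb it lay between -0.02 and 0.02.

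At the edge of the rule, the closest isolated sites were chr12:110735657-110736189, whose nearest CREB1-free neighbour lay 5.001 kb away with a score of 141.93 for the site itself, and the pair chr3:18147647-18148346 and chr3:18152733-18153263. The members of this pair lay 5.0015 kb apart and scored 334.88 and 406.43. Just outside were chr17:15144336-15145053 and chr17:15149338-15150051, exactly 5 kb apart, with scores of 306.05 and 368.57. Only 2 isolated sites had no CREB1-free neighbour within 1 Mb. One was chr11:51580737-51581189, which scored 82.43 with its neighbour 1129 kb away, and the other was chrY:59019442-59020263, which scored 301.72.

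Chromosomes differed in how their FOXA1 peaks divided. The X chromosome had the highest isolated share, 1622 of 2251 FOXA1 peaks or 72.1% (70.2% to 73.9%), and the lowest share that met CREB1, 5.82%. Its isolated sites lay a median of 102 kb from CREB1. Chromosome 19 had the lowest isolated share, 424 of 908 or 46.7%, while 44.6% of its FOXA1 peaks met CREB1, and the median gap was 10.8 kb. These shares are of all FOXA1 peaks, so they are lower where more peaks met CREB1. Among CREB1-free peaks alone, the order of X and 19 was reversed. X had 1622 isolated and 498 clustered sites, and chromosome 19 had 424 and 79. Chromosomes 16, 17 and 22 also had isolated shares under 58% of their FOXA1 peaks, at 55.5%, 56.6% and 57.6%, with 29.3% to 31.2% of peaks meeting CREB1, and the 63 peaks of chromosome Y were 57.1% isolated. Chromosome 13 had the highest isolated share after X, with 66.9% isolated and 12.5% meeting CREB1. The median score of the isolated sites varied little beside these shares, from 175.25 on chromosome 22 to 209.85 on chromosome 13, apart from 118.62 over the 36 sites of chromosome Y. Chromosome 19 held 0.846% of the isolated sites and 5.08% of the CREB1 peaks of abl. FOXA1 peaks of every class were few there, 908 of 79242, and it held 2.75% of the CREB1-sharing ones.

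**Figure D4:**
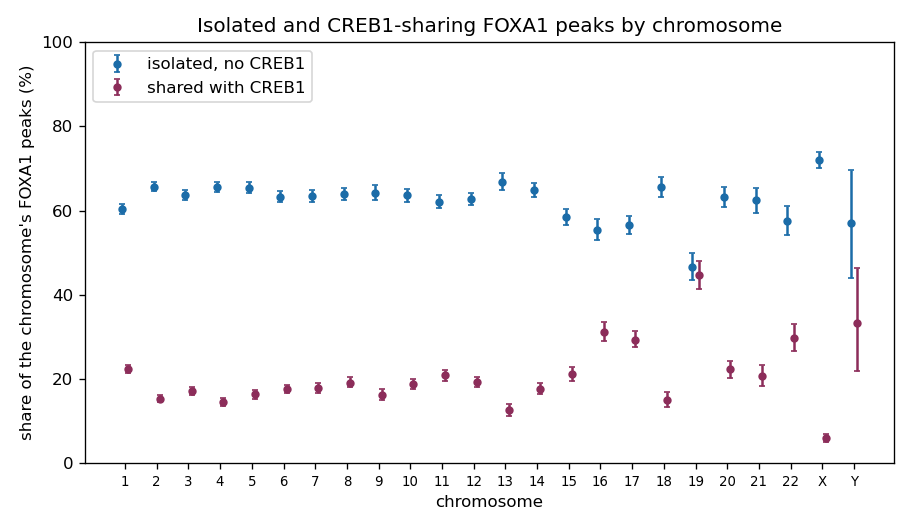
Share of each chromosome's FOXA1 peaks (%, vertical) that are isolated without CREB1 or shared with CREB1, by chromosome (horizontal), with 95% exact Clopper-Pearson intervals over peaks. The isolated share is highest on X (72.1%) and lowest on 19 (46.7%), where the CREB1-sharing share reaches 44.6%.

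In windows of 1 Mb, isolated FOXA1 sites were found nearly throughout. Of 2881 windows with any peak of the 3 lists, 49 held no isolated site. The median window held 17, and 80% of windows held between 5 and 30. The fullest windows were chr5:90000001-91000000 with 47 isolated sites, chr12:81000001-82000000 with 46 and chr1:197000001-198000000 with 45. The last of these holds the strongest isolated site. These windows also held CREB1 peaks of abl, 8, 5 and 15 in turn.

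The number of isolated sites did not climb steadily with the number of CREB1 peaks. Since the classes are defined by overlap with CREB1, the rule itself ties CREB1-sharing peaks, and the split of FOXA1 peaks between classes, to the CREB1 count, and the values are given as a description. Windows with no CREB1 peak of abl held a median of 6 isolated sites, those with 8 to 14 held 22, and those with 30 or more held 13. The median number of CREB1-sharing FOXA1 peaks rose over the same windows from 0 to 6 and 13. As a share of all FOXA1 peaks in the windows, isolated sites fell from 78.5% where abl had no CREB1 peak to 45.9% where it had 30 or more. Across the 2881 windows, Spearman's rho with the CREB1 count of abl was 0.35 for isolated sites and 0.87 for CREB1-sharing peaks, and isolated and clustered counts had a rho of 0.66. These are descriptions of windows that share the same libraries, with no test.

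Some stretches carried isolated FOXA1 sites and no CREB1 at all. A total of 137 windows held no CREB1 peak of either line, and they held 1015 isolated sites, 2.02% of the class. The fullest was chr14:43000001-44000000 with 38 isolated and 6 clustered sites, followed by chr2:142000001-143000000 with 29 and 11. The next 3 all lay on the X chromosome, with 22 to 25 isolated sites each. The 6 isolated sites farthest from CREB1 all lay on chromosome 13, between positions 85768504 and 85984206, each at least 2339 kb from any CREB1 peak. The strongest of these 6, chr13:85983409-85984206, scored 1140.28, and the weakest scored 160.44.

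The RNA libraries show how the factor itself and the genes known to work with it responded to knockdown; they were not tied to single sites. Assigned reads ranged from 9092597 to 37314039 per library, and 15550 genes were tested with edgeR's quasi-likelihood test. Nothing in the labels says that the libraries of a group came from separate cultures, so p-values measure the spread between libraries only. In abl, 11 of 13 luminal prostate markers were above 1 CPM (counts scaled to library size) in every library, with a summed level of 3780 to 4460 CPM, of which STEAP2 and FOLH1 made up much. KLK3, which encodes prostate-specific antigen, was low in abl, at 0.36 and 0.11 CPM under siControl against 70.6 and 73.9 CPM in LNCaP. Basal markers summed to 64.4 to 132 CPM in abl and neuroendocrine markers to 81.7 to 150 CPM. Under siFOXA1 in abl, 2 of 4 tested basal markers were higher and 1 lower. Of 5 neuroendocrine markers tested, 3 were higher and 0 lower, beside 29.9% and 26.5% of all genes. DST rose from a mean of 73.8 to 126 CPM, whereas ITGB4, also basal, fell from 15.0 to 10.6 CPM. KRT14, the other basal marker called higher, reached a mean of 0.11 CPM. ENO2 rose from 52.5 to 91.7 CPM, NCAM1 from 29.8 to 47.6 CPM and SYT4 from 1.21 to 11.8 CPM. SYP, at 1.45 and then 0.76 CPM, was not called. In LNCaP under siFOXA1, 1 neuroendocrine marker was higher and 1 lower, beside 24.4% and 25.5% of all genes. The lower one was ENO2, which fell there from 105 to 77.2 CPM. Of the 13 luminal markers in abl under siFOXA1, 5 were lower and 3 higher, beside 26.5% and 29.9% of all genes. Fibroblast markers summed to 10.8 to 21.2 CPM, with COL1A2 and DCN at 0, and blood markers to 16.6 to 31 CPM. Among the blood markers CSF3R stood at 2.42 and 0.22 CPM under siControl in abl and at 0 in both siFOXA1 libraries. It was also low under siCREB1, at 0.05 and 0 CPM, so the signal lay mainly in the first siControl library. The siControl libraries of LNCaP showed the same, with 2.74 and 0 CPM. CD68 rose in abl under siFOXA1 from 14.2 and 15.6 CPM to 27.6 and 21.2 CPM. The part of such cells in the RNA results was not tested.

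FOXA1 mRNA fell in both lines under its siRNA. In abl, where the sites were mapped, it stood at 556 and 504 CPM under siControl and at 196 and 229 CPM under siFOXA1. The groups did not overlap, 40.0% of the level was kept, and the log2 change was -1.32 ± 0.08 (SE, adjusted p = 2.04e-08 by edgeR). In LNCaP the level went from 799 and 695 CPM to 215 and 211 CPM, with 28.5% kept and a log2 change of -1.81 ± 0.09. The difference between these changes passed its own test, beside 14.7% of all tested genes with a lower and 17.9% with a higher value in abl than in LNCaP. Under siCREB1, FOXA1 mRNA of abl stood at 530 and 547 CPM, within the spread of the controls, with a log2 change of 0.02 (adjusted p = 0.864 by edgeR). Without the second abl siControl library this value was -0.05. In LNCaP the siCREB1 value was -0.19 (adjusted p = 0.0913 by edgeR), and without the second LNCaP siControl library it was -0.28 (adjusted p = 0.0265).

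**Figure D5:**
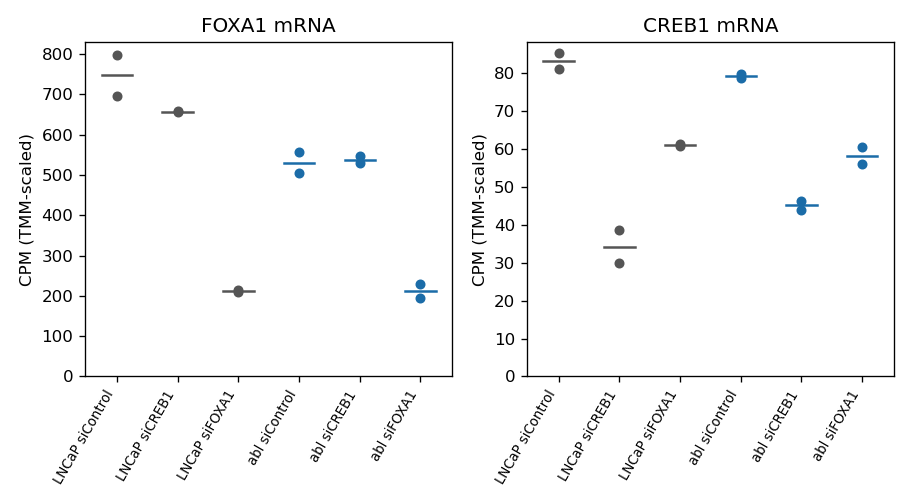
FOXA1 mRNA (left) and CREB1 mRNA (right) in CPM after TMM scaling (vertical) for each of the 6 groups of LNCaP and abl (horizontal), with 1 point per library and a line at the mean of 2 libraries. FOXA1 of abl is near 196 and 229 CPM under siFOXA1 against 556 and 504 CPM under siControl, and CREB1 is lower under both knockdowns.

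CREB1 mRNA, the transcript of the factor that was not called at these sites, fell under its own siRNA and under siFOXA1. In abl it stood at 78.8 and 79.7 CPM under siControl, at 46.3 and 43.9 CPM under siCREB1 and at 60.4 and 56.1 CPM under siFOXA1. The log2 changes were -0.81 ± 0.10 and -0.44 ± 0.09 (SE, adjusted p = 9.1e-06 and 0.00114 by edgeR).

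Of 35 genes listed as FOXA1 with its binding partners and co-regulators, 31 were tested, and FOXA1 and CREB1 are among them. In abl under siFOXA1, 20 were lower and 6 higher, beside 26.5% of all tested genes called lower and 29.9% called higher. The median log2 change of the list was -0.46, and that of all genes was 0.03. In LNCaP under siFOXA1, 15 were lower and 6 higher, beside 25.5% and 24.4% of all genes, with a median of -0.22. Under siCREB1, which shares its controls with siFOXA1, 13 were lower and 6 higher in abl (23.7% and 27.5% of all genes), and 17 were lower and 2 higher in LNCaP (19.8% and 17.8%).

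The partners did not all move one way; the genes below were chosen after their values were seen. GATA2, a zinc-finger factor that binds with FOXA1 at prostate enhancers, went from 259 and 236 CPM to 500 and 544 CPM in abl under siFOXA1, a log2 rise of 1.07 ± 0.07. TLE3, a co-repressor that FOXA1 can recruit, went from 309 and 276 CPM to 131 and 146 CPM, a log2 change of -1.08 ± 0.10. CREBBP, the histone acetyltransferase recruited by CREB1, changed by -0.85 ± 0.13. KDM1A, a histone demethylase, rose by 0.61 ± 0.07 and PIAS1, a SUMO ligase, by 0.60 ± 0.07. HOXB13, a homeobox factor of prostate cells, had a log2 change of 0.18 (adjusted p = 0.0826 by edgeR). Several of these genes moved the same way in abl under siCREB1, against the same controls. The log2 change there was 0.57 for KDM1A, 0.42 for GATA2, -0.48 for CREBBP and 0.34 for HOXB13, but 0.05 for TLE3.

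Of 23 listed forkhead genes, FOXA1 included, 17 were tested, and 13 were lower and 1 higher in abl under siFOXA1, beside 26.5% and 29.9% of all genes. Without the second abl siFOXA1 library, 8 were lower. In LNCaP 11 were lower and 2 higher, beside 25.5% and 24.4% of all genes. Under siCREB1, 7 were lower and 2 higher in abl (23.7% and 27.5% of all genes), and 7 were lower in LNCaP (19.8% of all genes). The median log2 change was -0.55 in abl and -0.47 in LNCaP. FOXM1, a driver of mitotic gene expression, went from 53.6 and 49.6 CPM to 9.93 and 11.8 CPM in abl, a log2 change of -2.25 ± 0.11. FOXP1, a transcriptional repressor of the family, went from 76.5 and 78.0 CPM to 22.6 and 17.0 CPM. FOXD1 went from 32.1 and 33.4 CPM to 13.0 and 13.1 CPM. FOXN3, a repressor linked to checkpoint control, was the member that rose in abl, from 95.8 and 86.0 CPM to 142 and 151 CPM. Under siCREB1 in abl, against the same controls, the log2 change was -0.65 for FOXM1, -1.06 for FOXP1, -0.78 for FOXD1 and -0.15 for FOXN3.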

How the data were processed

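The authors deposited peak lists with a score for each peak. Tools named in the submitters' processing notes are MACS 1.4.2 and Bowtie 1.0.0, on hg19; pooling and input control are not given in the sources used here. Overlap needed at least 1 bp, and distances to FOXA1 run between midpoints while gaps to CREB1 run between edges. The isolated sites and gene lists were chosen with earlier results of these data known, and score, width and spacing come from the ChIP-seq that chose the sites. Sites named are those with extreme score, width, spacing or CREB1 gap and those nearest the threshold; some sites and genes these rules take are not reported here. Read counts per gene were deposited by the authors, made with HTSeq 0.5.3p9 after TopHat2 2.0.8, Bowtie2 2.1.0 and CASAVA 1.8 per the submitters' processing notes, with annotation and strand setting not given. Reads assigned to no feature, 54.8% to 58.3% of each library, were left out. All 12 libraries entered 1 fit (edgeR 4.0.16, R 4.3.3, TMM, filterByExpr, quasi-likelihood test, Benjamini-Hochberg adjusted p below 0.05), tested on simulated data. CPM of single genes are TMM-scaled, and DESeq2 1.42.0 was an alternative. Summed marker CPM and the numbers of markers above 1 CPM were scaled to library size without TMM. No genome or gene annotation of hg19 was used here, so the planned analysis of genes with isolated sites, motifs and transcription starts was not made, and the gene lists are tested in its place.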

Additional observations from a re-analysis of the deposited data

Results flagged for a closer look

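The response of FOXA1 mRNA to its own siRNA differed between the lines. The log2 change in abl minus that in LNCaP was 0.49 ± 0.12 (SE, adjusted p = 0.00584 by edgeR's test of the difference), with -1.32 in abl and -1.81 in LNCaP. The mean level under siFOXA1 was 212 CPM in abl and 213 CPM in LNCaP, whereas under siControl it was 530 and 747 CPM.

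Among the partner genes, the same difference was 0.88 for TLE3, 0.71 for PIAS1, 0.69 for KDM1A and 0.43 for GATA2. It was -1.09 for TLE1 and -1.07 for NFIB, which were chosen after their values were seen. TLE3, PIAS1, KDM1A and GATA2 were picked by their changes in abl under siFOXA1, which also enter this difference. NFIB changed by -0.80 in abl and 0.27 in LNCaP, and TLE1 by 0.02 in abl and 1.11 in LNCaP. Of the 31 partner genes tested, 7 had a higher and 4 a lower value in abl, beside 17.9% and 14.7% of all genes. TLE3 fell further in LNCaP (-1.96) than in abl (-1.08), and GATA2 rose by less there (0.65 against 1.07). PIAS1 and KDM1A rose in abl and had log2 values of -0.11 and -0.07 in LNCaP, and the tests of their differences gave adjusted p = 0.000111 and 8.21e-05 by edgeR.

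Among forkhead genes the difference was -1.08 for FOXM1, -0.71 for FOXP1, -0.88 for FOXD1 and -0.41 for FOXN3. These 4 were the forkhead genes with a lower value in abl by the test, and 3 had a higher one, which were FOXA1, FOXP4 with 0.43 (adjusted p = 0.00915 by edgeR) and FOXJ3 with 0.26 (adjusted p = 0.0458 by edgeR). FOXP4 and FOXJ3 were chosen after their values were seen. FOXM1, FOXP1, FOXD1 and FOXN3 were picked by their changes in abl under siFOXA1. Those changes also enter this difference, so the choice favours larger changes in abl. FOXM1, FOXP1 and FOXD1 fell further in abl, and FOXN3 rose by less there, 0.68 against 1.09 in LNCaP. Over all 15550 genes tested, 14.7% had a lower and 17.9% a higher value in abl than in LNCaP by the same test.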

How the results depend on the processing

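The number of isolated sites stayed within 1.5 times 50133 under every alternative run, from 35376 at a distance of 10000 bp to 56457 at 2500 bp. The abl CREB1 list alone (51100) and leaving out chromosomes X and Y (48475) were chosen after seeing the data, as were all alternatives for the gene lists. The median score stayed between 192.77 and 200.31, except that a minimum score of 100 gave 46119 sites and 240.11.

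Counts of called list genes stayed within 1.5 times of the main count in 95 of 96 settings. The settings were DESeq2, no filter, the 6 libraries of 1 line, the replicate block and leaving out single libraries. Each was compared with the main count only, and counts without single libraries could differ from each other by more, as for the partner list in LNCaP. The exception was the forkhead list in abl under siFOXA1, with 8 to 12 genes lower without single libraries against 13. FOXA1 under siCREB1 in abl reversed to -0.009 with the 6 abl libraries alone and, without single libraries, ranged from -0.047 (second siControl library left out) to 0.106. Library numbers did not pair the samples (correlations of deviations from -0.04 to 0.12). With the replicate block, 8817 genes were called under siFOXA1 in abl against 8779 without it. The second abl siControl library, with 9092597 assigned reads, limits the precision of levels in abl. Alternatives planned for genes with isolated sites, motifs and transcription starts were not run, since no annotation of hg19 was used here. Each peak list used is 1 sample, and the spread between ChIP-seq experiments was not analysed here.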
